A study of Mus musculus with 4 samples.

Results

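The 10 genes followed in these data, out of 30406 genes shared by the references of the 4 libraries, encode proteins that the lining of a duct or the cells beneath it release against microbes: Lcn2, Ltf, Pglyrp1, Dmbt1, Pigr, Sftpd, Slpi, Wfdc2, Saa3 and Lyz2. They were taken as a named list, matched by Ensembl identifier, and all 10 were present in every count table. Their mRNAs were counted, cell by cell, in the common bile duct of mice, the tube that carries bile from the liver to the gut. Cells were sorted computationally into marker-based classes, and the genes were read in each library, in each class, and in marker-gated subsets of the epithelium and of the macrophages. Neither the clustering nor the naming of classes used any of the 10 genes.

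Mucosal surfaces defend themselves with secreted proteins that act on microbes in several ways. Some bind microbial surfaces: Pglyrp1 binds bacterial peptidoglycan, Dmbt1 is a scavenger-receptor protein that aggregates bacteria, and Sftpd is a collectin that binds microbial sugars. Some withhold iron: Lcn2 captures bacterial siderophores and Ltf, lactoferrin, binds iron itself. Pigr, the polymeric immunoglobulin receptor, carries dimeric IgA across the epithelium and is shed with it into the lumen. Slpi and Wfdc2 belong to the whey acidic protein family, and Slpi inhibits neutrophil elastase and other serine proteases. Saa3 is an acute-phase serum amyloid A of tissues, and Lyz2 is the lysozyme of macrophages and other myeloid cells. Lcn2, Ltf and Pglyrp1 are also known as proteins of neutrophil granules.

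The series compares untreated wild-type ducts (3 libraries, wild type 1 to 3) with 1 library from a duct carrying a mosaic Ctnnb1 gain of function (Ctnnb1 encodes the Wnt effector beta-catenin), labelled Prom1_BcatGOF and called GOF below. Whole ducts were freed of neighbouring tissue and dissociated with enzymes, and 3′ libraries were made. The labels give neither the alleles behind the genotype, the share of cells that carry it, age or sex, nor whether a library pooled animals, and they do not say if each wild-type library is a different animal. P-values therefore measure only the spread between these libraries, which may be technical, and every test of GOF assumes that its single library would vary like the wild-type ones.

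After filtering, 9183 cells were used from the GOF library and 4270, 2415 and 2055 from wild type 1, 2 and 3, with median unique molecular identifiers (UMIs) over all barcodes of 7038.5, 3690, 2690.5 and 1933 in that order. Libraries shared between 5 and 19 cell barcodes per pair. Epithelial-like cells numbered 4460, 2973, 1508 and 1162, and all 12 epithelial markers were present in each library. Ctnnb1 itself, in epithelial-like cells, was at 277 CPM in GOF against 575, 551 and 449 CPM in wild type 1, 2 and 3, but 3′ counts do not read an altered protein, so this checks nothing. At least 2 UMIs of the Wnt-responsive genes Lgr5 and Notum were found in 574 of 4460 GOF epithelial-like cells and in 2 of 2973, 2 of 1508 and 0 of 1162 wild-type cells. The GOF table was written by another version of the counting software than the wild-type tables, so genotype and software version cannot be told apart in any GOF difference.

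In the wild-type duct the list split into an epithelial set of 7 genes (Lcn2, Ltf, Pglyrp1, Dmbt1, Pigr, Sftpd and Wfdc2) and 3 genes read mainly outside the epithelium (Slpi, Saa3 and Lyz2). Levels are given as CPM, a class's count scaled to a common total of UMIs, which counts molecules at the 3′ end and so does not scale with gene length. The epithelial-like class held at least 89.6% of all Dmbt1 UMIs of each wild-type library, 92.6% to 97.4% of Wfdc2 and 75.0% to 97.5% of Lcn2. For Lyz2, the macrophage and monocyte-like class held 89.7% to 93.6%. Slpi was spread over the mesothelial-like class, with 73.8%, 40.4% and 72.5% of UMIs, and over macrophages, B and plasma cells and an unnamed cluster. Tuft-like cells, a separate class, had wild-type means near those of epithelium for Dmbt1 (13762 against 15751 CPM) and Pigr (960 against 1223 CPM). Pancreatic acinar-like cells, in 2 libraries, had 11890 CPM of Dmbt1. By wild-type mean, Lcn2 (2621 against 2264 CPM) and Ltf (915 against 474 CPM) were higher in neutrophil-like cells than in epithelium.

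**Figure D1:**
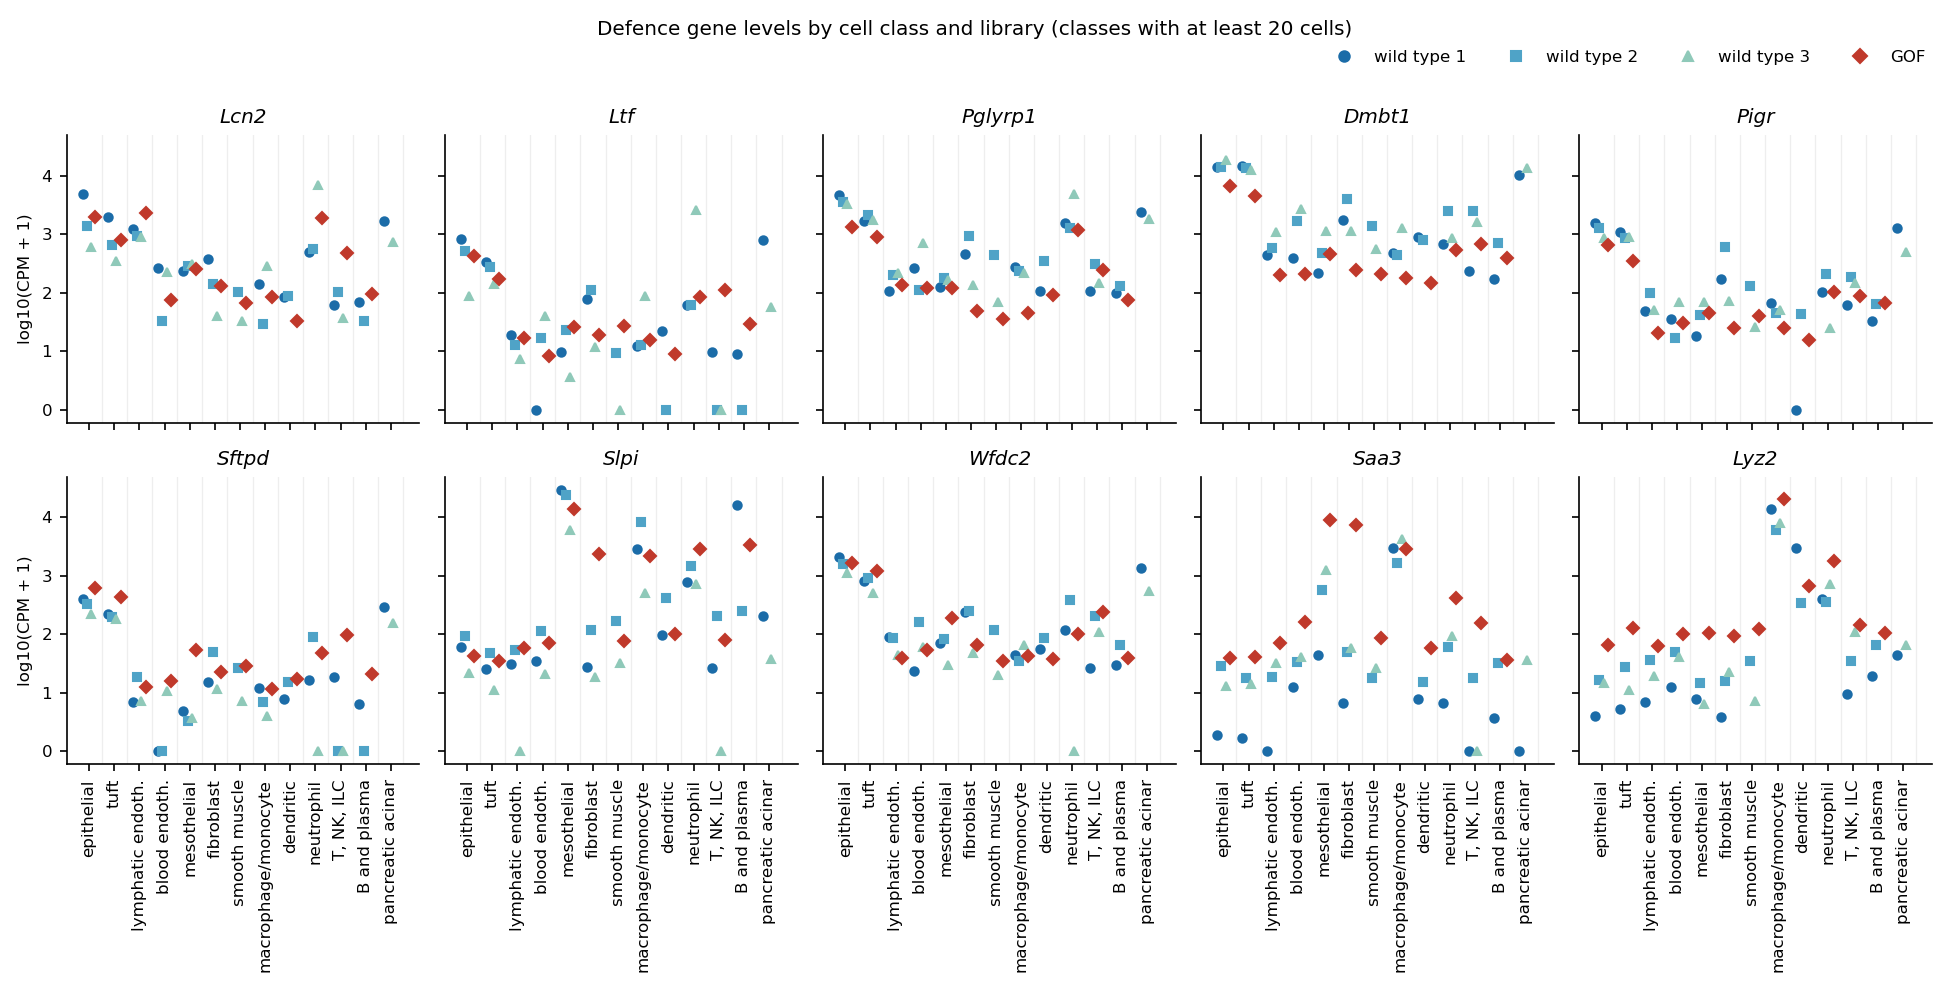
Level of each of the 10 genes (vertical axis, log10 of CPM plus 1) in 13 cell classes (horizontal axis), with 1 point per library for classes of at least 20 cells. Dmbt1, Pigr, Sftpd and Wfdc2 are highest in wild-type epithelial-like cells on average, Lcn2, Ltf and Pglyrp1 are high there and in the neutrophil-like cells of wild type 3 as well, while Slpi peaks in mesothelial-like cells, Saa3 in macrophages, mesothelial-like and GOF fibroblast-like cells, and Lyz2 in macrophages.

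To show what precedes their transcription starts, the 250 bases before the annotated start are given for Lcn2, Ltf, Pglyrp1 and Pigr, which were each called at 1 or more of the epithelial gates below, and for Slpi and Saa3, the pair with mesothelial and macrophage expression. They come from RefSeq on GRCm38.p6, which held 8 of the 10 genes (Dmbt1 and Sftpd were not among them), and are written in the direction of transcription. The gene models given below differ from these starts for some genes. Those of Lcn2, Pglyrp1 and Slpi begin further upstream, so that these windows lie inside the models. Capitals mark matches, on either strand, to the C/EBP consensus TTNCNNAA or to the NF-kB consensus. The windows are chr2:32387740-32387989 on the minus strand for Lcn2, chr9:111019042-111019291 on the plus strand for Ltf, chr7:18884440-18884689 on the plus strand for Pglyrp1, chr1:130826434-130826683 on the plus strand for Pigr, chr2:164356508-164356757 on the minus strand for Slpi and chr7:46715677-46715926 on the minus strand for Saa3.
Lcn2: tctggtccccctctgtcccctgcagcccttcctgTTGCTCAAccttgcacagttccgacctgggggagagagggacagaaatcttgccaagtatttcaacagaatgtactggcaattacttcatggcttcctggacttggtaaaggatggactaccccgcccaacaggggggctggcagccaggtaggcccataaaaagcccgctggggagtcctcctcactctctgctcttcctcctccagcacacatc
Ltf: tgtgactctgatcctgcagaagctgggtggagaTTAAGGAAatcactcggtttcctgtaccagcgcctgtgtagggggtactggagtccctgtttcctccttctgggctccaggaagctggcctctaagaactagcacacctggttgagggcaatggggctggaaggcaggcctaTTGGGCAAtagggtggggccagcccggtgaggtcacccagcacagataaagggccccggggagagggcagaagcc
Pglyrp1: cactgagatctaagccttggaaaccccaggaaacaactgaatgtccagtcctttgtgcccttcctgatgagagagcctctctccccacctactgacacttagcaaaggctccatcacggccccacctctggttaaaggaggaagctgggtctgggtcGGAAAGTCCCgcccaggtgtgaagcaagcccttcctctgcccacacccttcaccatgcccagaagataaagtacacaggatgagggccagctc
Pigr: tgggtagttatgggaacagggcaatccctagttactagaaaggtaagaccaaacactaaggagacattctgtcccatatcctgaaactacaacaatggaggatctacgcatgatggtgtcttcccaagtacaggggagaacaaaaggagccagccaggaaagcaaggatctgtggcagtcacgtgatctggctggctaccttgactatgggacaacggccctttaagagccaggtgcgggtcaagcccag
Slpi: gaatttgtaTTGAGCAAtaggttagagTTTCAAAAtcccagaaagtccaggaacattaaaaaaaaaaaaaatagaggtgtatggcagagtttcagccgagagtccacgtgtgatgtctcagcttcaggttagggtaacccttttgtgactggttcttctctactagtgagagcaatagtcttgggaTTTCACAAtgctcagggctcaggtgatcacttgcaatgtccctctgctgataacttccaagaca
Saa3: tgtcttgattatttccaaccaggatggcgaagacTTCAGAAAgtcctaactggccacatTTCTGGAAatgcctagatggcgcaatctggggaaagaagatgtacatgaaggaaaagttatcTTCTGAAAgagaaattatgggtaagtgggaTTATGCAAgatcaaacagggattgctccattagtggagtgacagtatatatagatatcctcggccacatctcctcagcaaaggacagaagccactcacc

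The C/EBP consensus was found 1 time before Lcn2, 2 times before Ltf, 3 times before Slpi and 4 times before Saa3, and 1 time each before Wfdc2 and Lyz2. Among 32841 mouse promoter windows of the same length, 36.9% held at least 1 such match, so a single one is common. The NF-kB consensus was found before Pglyrp1 alone of the 8 genes, 84 to 93 bases upstream, and 7.25% of windows held it. Lyz2 carried 1 match to the Ets word AGGAAGT, held by 7.69% of windows, and none of the 8 windows matched the STAT word TTCNNNGAA, held by 7.02%. Pigr had none of the 4. A match is a run of letters and not a tested binding site.

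The genes lie at separate loci apart from a pair on chromosome 2. In GRCm38 the gene models are Lcn2 at chr2:32384633-32388252, Slpi at chr2:164354070-164389095 and Wfdc2 at chr2:164562413-164568510, and on chromosome 7 Pglyrp1 at chr7:18871331-18890459, Saa3 at chr7:46711998-46715700 and Dmbt1 at chr7:131032053-131121630. Ltf is at chr9:111019271-111042767, Pigr at chr1:130826684-130852249, Sftpd at chr14:41172214-41185149 and Lyz2 at chr10:117277331-117282321. All are protein-coding. Dmbt1 overlaps Fgfr2 on the other strand, Slpi overlaps the microRNA gene Mir7678, and Lyz2 has a near-identical neighbour, Lyz1, between which reads may be divided, so Lyz2 levels are uncertain in absolute terms.

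Of the microbe-binding proteins, Dmbt1 was the most abundant of the list in epithelium. Its level was 14248, 14320 and 18684 CPM in wild type 1, 2 and 3 and at 6580 CPM in GOF. The wild-type values lay within 1.31-fold of each other, and the GOF value was below all of them. Pglyrp1 stood at 4689, 3502 and 3322 CPM, within 1.41-fold, and at 1306 CPM in GOF, again below the wild-type range. Sftpd, the least abundant of the set, stood at 399, 328 and 224 CPM and was above that range in GOF, at 624 CPM.

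Pigr was read at 1526, 1276 and 867 CPM in wild-type epithelium and at 662 CPM in GOF, which is below all 3. Wfdc2, whose product is best known from airway and genital epithelia, was read at 2079, 1614 and 1115 CPM, with GOF inside that range at 1684 CPM. Both genes were highest in wild type 1 and lowest in wild type 3.

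Of the 7 genes of the epithelial set, the iron-withholding pair differed most between wild-type libraries. Lcn2 stood at 4804, 1392 and 596 CPM in wild type 1, 2 and 3, an 8.06-fold range, and Ltf at 818, 516 and 87.9 CPM, a 9.31-fold range. GOF lay inside both ranges, with 1985 CPM of Lcn2 and 430 CPM of Ltf. The wild-type mean of Lcn2 was 2264 ± 2235 CPM (SD, n = 3), a spread as large as the mean.

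The other 3 genes were low in the epithelium. Slpi was at 59.2, 91.3 and 21.1 CPM in the wild type and 41.5 CPM in GOF. Saa3 was at 0.914 CPM in wild type 1 (exact Poisson 95% interval 0.621 to 1.3 CPM, which covers counting error only), at 28.0 and 12.3 CPM in the other wild-type libraries, and at 38.2 CPM in GOF. Lyz2 was at 3.10, 15.4 and 13.5 CPM and at 64.4 CPM in GOF. RNA free in the cell suspension bears on such levels. Summed markers of macrophages stood in epithelial-like cells at 0.816% of their macrophage level in GOF. In wild type 1, 2 and 3 they stood at 0.0900%, 0.357% and 0.305%, the same order of libraries as Saa3 and Lyz2. The part of free RNA in these low values was not tested.

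**Figure D2:**
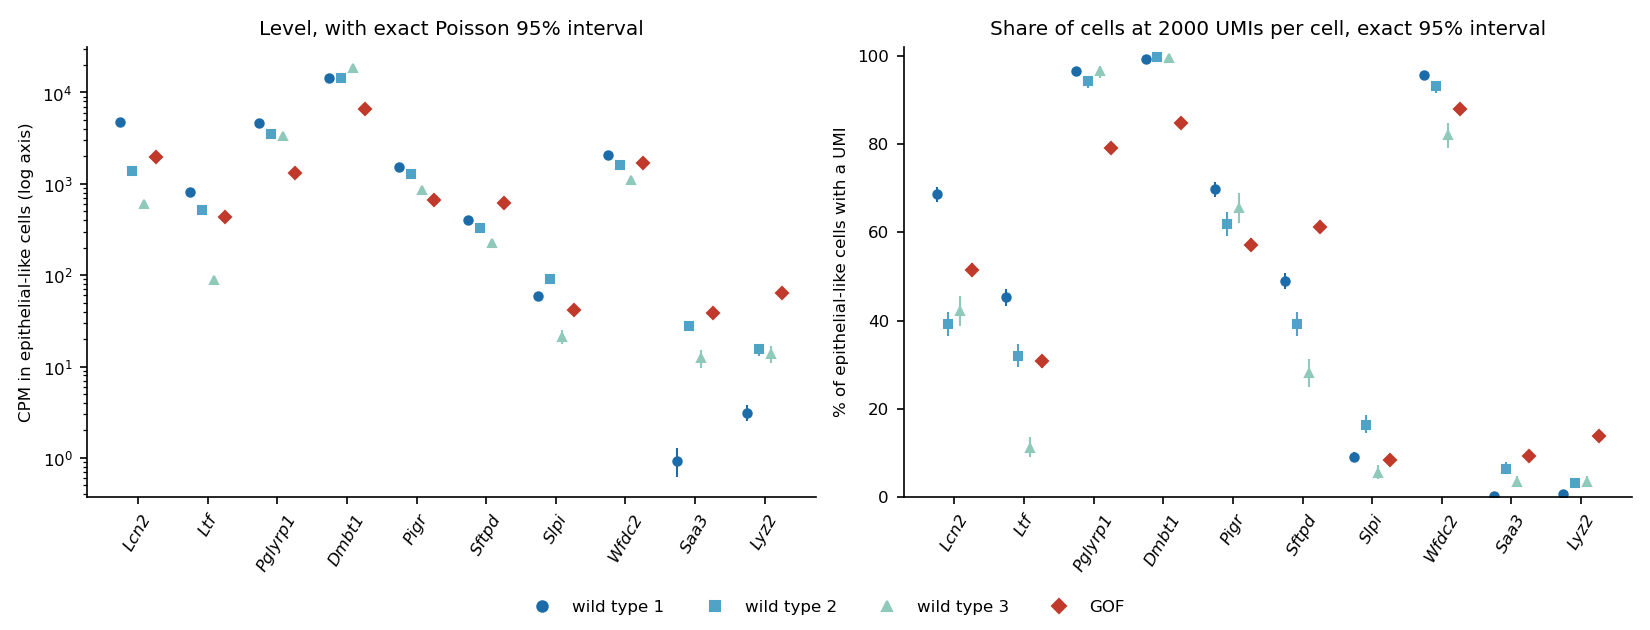
Left, level of each gene in epithelial-like cells (CPM, log axis) with its exact Poisson 95% interval; right, percentage of epithelial-like cells with at least 1 UMI after each cell was thinned to 2000 UMIs, with exact binomial intervals, 1 point per library. Dmbt1, Pglyrp1 and Pigr lie lowest in GOF, Sftpd highest in GOF, and Lcn2 and Ltf spread over 8.06-fold and 9.31-fold ranges among the wild-type libraries, with Saa3, at far lower levels, over a 30.6-fold range.

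At an equal depth of 2000 UMIs per cell, nearly every wild-type epithelial-like cell held Dmbt1 (99.2%, 99.7% and 99.5%) and Pglyrp1 (96.7%, 94.2% and 96.6%), against 84.8% and 79.0% of GOF cells. Before thinning, the GOF shares were 94.0% and 94.9%. T, NK and innate lymphoid-like cells, which should lack both, held Dmbt1 in 46.7% of GOF and 36.4% of wild type 1 cells at the same depth, and Pglyrp1 in 17.6% and 18.2%, so a UMI of these genes in a cell is weak evidence of expression. Lcn2 was found in 68.7%, 39.2% and 42.2% of wild-type epithelial-like cells and in 51.5% of GOF cells, against 9.09% and 15.4% of the lymphoid-like cells of wild type 1 and GOF. Sftpd was found in 49.0%, 39.2% and 28.2%, and in 61.3% of GOF cells, against 4.55% and 7.14%. Thinning left out 380 GOF cells and 147, 183 and 370 wild-type cells as too shallow.

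The epithelial set stood far above its level in macrophage and monocyte-like cells of the same wild-type libraries. Of all 11995 genes tested, 44.0% differed between these classes at an adjusted p under 0.05 (quasi-likelihood fit in edgeR, blocked on library, Benjamini-Hochberg adjustment). All 10 members did, 7 higher and 3 lower in epithelium, with a median log2 difference of 3.99 against 0.19 over all genes. Sftpd differed most among the higher ones (log2 difference 5.54 ± 0.34 SE, adjusted p = 1.96e-09), and the lower ones were Slpi (-5.59 ± 0.40, 1.22e-08), Saa3 (-8.46 ± 0.87, 8.12e-07) and Lyz2 (-9.88 ± 0.68, 7.44e-09). The 8 epithelial reference genes used to gauge free RNA stood in wild-type macrophages at 2.58% to 4.33% of their epithelial level.

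Against fibroblast-like cells, 30.3% of 12003 genes were called and 8 of the 10 members were, the same 7 higher in epithelium. Their log2 differences ran from 2.68 for Pigr to 3.97 for Sftpd, and Saa3 was lower in epithelium, by a log2 difference of -1.45 (adjusted p = 0.0144), a call that ended without wild type 3 (-0.97). Slpi was not called at 0.38 ± 0.32. That value rests on which cells count as fibroblasts: with the unnamed cluster described below counted among them, a setting chosen after seeing the data, Slpi was -4.23 and called.

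Within the epithelium Lcn2 was more unevenly spread over cells than Dmbt1. After thinning to 2000 UMIs, the 10% of cells with the most held 37.2% of Lcn2 UMIs in wild type 1 and 60.8% in both wild type 2 and wild type 3. The same share for Dmbt1 was 22.7%, 22.0% and 18.2%. Lcn2 and Ltf were found in the same cells: Spearman's rho over cells was 0.65, 0.73 and 0.23 in wild type 1, 2 and 3 and 0.47 in GOF. Lcn2 went with Pglyrp1 as well in 3 libraries (0.68, 0.61 and 0.40 in wild type 1, wild type 2 and GOF) and little in wild type 3 (0.12). These correlations describe cells of 1 library at 1 depth, which share its free RNA.

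Lcn2 and Ltf were higher in epithelial-like cells marked by Nos2 and Cxcl5, the genes of inducible nitric oxide synthase and of a neutrophil-attracting chemokine. Cells with at least 2 UMIs of this pair (the inflamed gate) made up 75.0%, 38.3% and 5.85% of wild-type epithelium in libraries 1, 2 and 3 and 20.1% of GOF epithelium. Between cells without the pair and cells with it, Lcn2 went from 407 to 5356 CPM in wild type 1, from 90.4 to 2237 in wild type 2 and from 465 to 1138 in wild type 3. It went from 754 to 4406 CPM in GOF. Lcn2 was thus higher in the positive cells of all 4 libraries, and least so in wild type 3. The genes of this and the other gates were chosen with earlier results of these data known. The cluster led by Nos2 and Cxcl5 also had Lcn2 among its leading genes. P-values at the gates are therefore no independent support.

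Across the wild type, 5.21% of 11113 genes differed between the arms of the inflamed gate and 4 of the 10 members did, all higher in positive cells. Lcn2 rose by a log2 difference of 3.21 ± 0.55 (adjusted p = 0.0189), Ltf by 3.08 ± 0.63 (0.0302), Pigr by 1.22 ± 0.23 (0.0252) and Dmbt1 by 0.53 ± 0.07 (0.00691), each higher in 3 of 3 libraries. Pglyrp1 missed the threshold (0.84 ± 0.23, 0.0687), with 2061 to 5013, 1884 to 4573 and 3400 to 3441 CPM from negative to positive cells. Wfdc2 differed by 0.01 ± 0.10. Positive cells were also deeper, with median UMIs of 8873.5 against 4065 in wild type 1, 5184 against 2750.5 in wild type 2 and 12996.5 against 2315.5 in wild type 3, and with every cell thinned to 2000 UMIs 7 members were called, all higher. Leaving out wild type 2 ended all 4 calls (Lcn2 was then 2.48, adjusted p = 0.39), as did leaving the library block out of the fit. Nearly all calls over all genes ended too. Without wild type 2, 1 gene was called higher and 3 lower of 10608, and without the block 0 and 1 of 10743. Without wild type 1 Lcn2 and Dmbt1 kept their calls, and without wild type 3 Pglyrp1 (1.3), Sftpd (0.61) and Slpi (0.73) were called too.

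The resting gate, cells with at least 2 UMIs of the carbonic anhydrase gene Car4 and the glucose transporter gene Slc2a2, gave the opposite picture. Of 11624 genes 14.5% were called, and 5 of the 10 members, all lower in positive cells. Pglyrp1 fell by 1.37 on the log2 scale (SE 0.12, adjusted p = 0.000409), from 5830 to 2387, 5121 to 1698 and 3957 to 2240 CPM in wild type 1, 2 and 3. Slpi fell by 1.69 (SE 0.10, 5.7e-05), Lcn2 by 1.94 (SE 0.41, 0.0145), Pigr by 1.04 (SE 0.25, 0.0234) and Wfdc2 by 0.60 (SE 0.07, 0.000877). For Pigr the wild-type libraries did not move alike, since wild type 3 held 859 CPM in negative and 897 CPM in positive cells. Dmbt1 (-0.16 ± 0.08) and Sftpd (-0.07 ± 0.19) were not called. Without wild type 1, and likewise without wild type 2, Lcn2 (-1.92 and -1.24) and Pigr (-0.93 and -0.66) were not called, and without wild type 3 Ltf (-2.87) and Sftpd (-0.43) were. Without the library block none of the 5 was, and over all genes 1 was called higher and 0 lower of 11194.

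The mucous gate marks cells with the gel-forming mucin gene Muc6 or the gastrokine gene Gkn3, which made up 1.11%, 4.97% and 9.38% of wild-type epithelium and 6.86% of GOF epithelium. With 2.83% of 10779 genes called, 3 of the 10 members were, all lower in positive cells. Ltf fell by 3.00 on the log2 scale (SE 0.38, adjusted p = 0.00536), from 831 to 40.0, 574 to 84.4 and 103 to 26.5 CPM in wild type 1, 2 and 3. Lcn2 fell by 2.48 (SE 0.52, 0.0429) and Sftpd by 2.11 (SE 0.25, 0.00419), the latter from 405 to 52.2, 360 to 94.3 and 268 to 84.4 CPM. Wfdc2 was 2071 to 2776, 1604 to 1912 and 940 to 1759 CPM, higher in the positive cells of all 3 libraries, but was not called (0.53 ± 0.21, 0.288). Pglyrp1 went down in wild type 1 and 2 and up in wild type 3, from 2653 to 5788 CPM. Without wild type 3 Pglyrp1 was lower, at -0.50, and called, and so was Slpi (-1.36); without wild type 2 Lcn2 (-2.42) was not. Without the library block Sftpd alone was called, and Lcn2 (-2.91, adjusted p = 0.0812) and Ltf (-3.30, 0.0811) were not. Over all genes 62 were then called higher and 20 lower of 10369. The wild type 1 values rest on 33 positive cells.

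**Figure D3:**
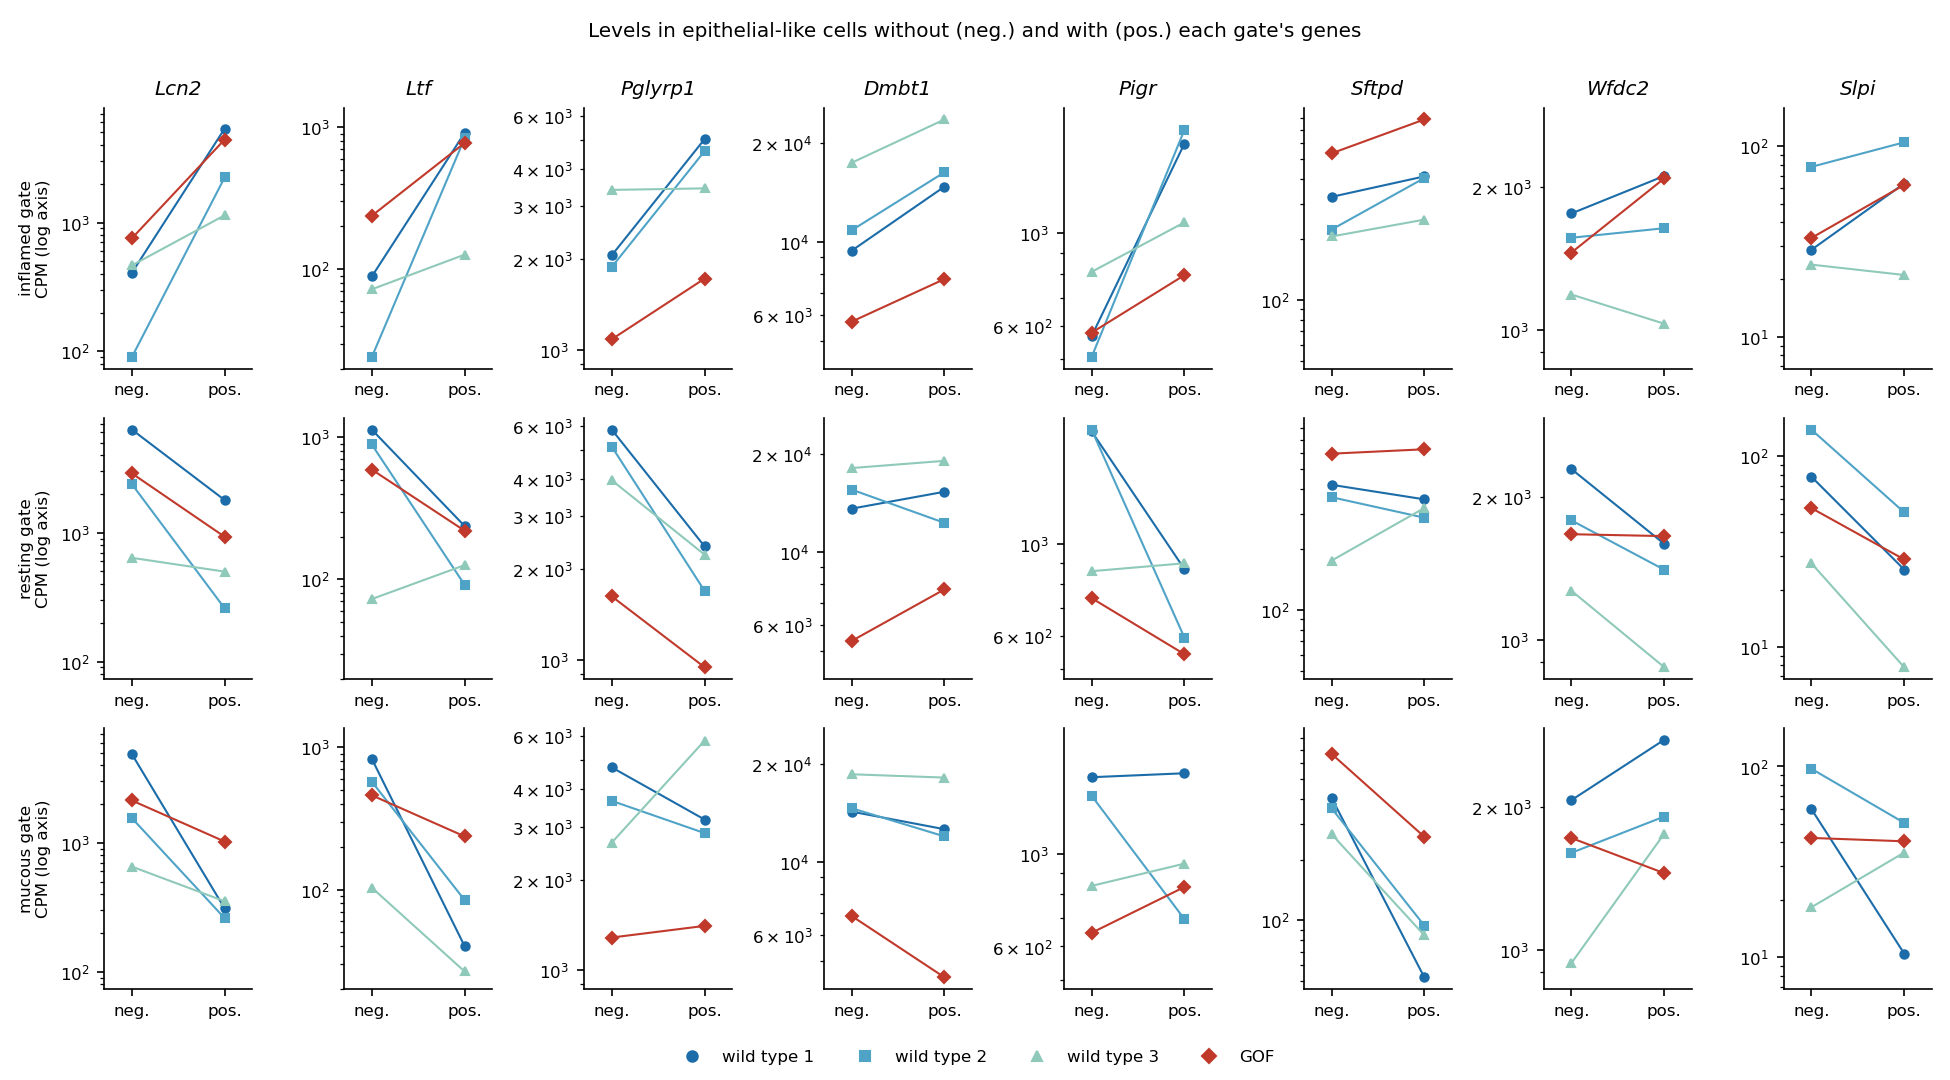
Levels of 8 genes (CPM, log axes) in epithelial-like cells without and with each gate's genes, joined within a library, for the inflamed, resting and mucous gates. Lines for Lcn2 rise at the inflamed gate and fall at the resting and mucous gates in every library, while those for Dmbt1 and Wfdc2 stay flatter.

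Cells carrying Reg3b or Reg3g, which encode antibacterial lectins of the gut, were compared without a test. In them Lcn2 was 8460 against 2764 CPM in wild type 1, 4082 against 476 in wild type 2, 882 against 524 in wild type 3 and 3663 against 1012 in GOF. Ltf was higher in the positive cells of all 4 libraries too, at 817 against 207 CPM in GOF. The positive cells of wild type 3 numbered 29. A cluster led by Reg3b and Reg3g, mostly of GOF cells, also had Ltf and Lcn2 among its leading genes.

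In GOF, epithelial-like cells positive for Lgr5 and Notum held less of every member than negative cells. Dmbt1 was 3423 against 8166 CPM, Lcn2 1492 against 2390, Wfdc2 1313 against 1876 and Pglyrp1 1198 against 1378. Positive cells were deeper, with a median of 19371.5 against 7633.5 UMIs. With 1 library there is no test, and wild-type libraries held too few positive cells to compare. GOF cells without the pair were still below the wild-type range for Dmbt1 and Pglyrp1.

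Outside the epithelium, Lcn2 was prominent in lymphatic endothelial-like cells, the lining of lymph vessels. They held 1204, 919 and 887 CPM in wild type 1, 2 and 3 and 2285 CPM in GOF, and their wild-type values, 1003 ± 174 CPM (SD, n = 3), spread much less than those of epithelium. Blood endothelial-like cells held 266, 32.2 and 228 CPM and 74.3 CPM in GOF. At 2000 UMIs per cell, 81.2% of GOF and 85.7% of wild type 1 lymphatic cells had Lcn2, while Ltf was found in 5.80% and 0%, the latter 0 of 21 cells, which allows up to 16.1% (exact binomial). Epithelial reference genes stood in lymphatic cells at 2.41% to 6.11% of their epithelial level, while Lcn2 in wild type 3 was above its own epithelial level of 596 CPM.

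Neutrophil-like cells carried the mRNAs of the granule proteins Lcn2, Ltf and Pglyrp1 unevenly. Pglyrp1 stood at 1569, 1284 and 4844 CPM in wild type 1, 2 and 3 and at 1182 CPM in GOF. Ltf stood at 61.7, 59.7 and 2623 CPM and at 84.0 CPM in GOF. Lcn2 was 490, 567, 6806 and 1903 CPM in the same order, so wild type 3 stood apart for all 3 genes. Of its 22 neutrophil-like cells, 20 lay in a cluster led by Ngp, Camp and Mmp8, other granule genes, in which 1 of the 576 cells of wild type 1 and 0 of the 30 of wild type 2 lay. Epithelial reference genes were at 6.35%, 18.3% and 4.92% of their epithelial level in wild-type neutrophil-like cells.

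Neutrophil-like and macrophage and monocyte-like cells of the wild type differed in 22.2% of 6420 genes and in 5 of the 9 members tested. Lcn2 (3.54 ± 0.57, adjusted p = 2.85e-08), Ltf (3.56 ± 0.66, 3.36e-06) and Pglyrp1 (3.12 ± 0.55, 5.29e-07) were higher in neutrophils, and Saa3 (-6.73 ± 0.72, 3.82e-18) and Lyz2 (-4.25 ± 0.58, 2.65e-11) lower. Ltf ran from 59.7 to 2623 CPM in wild-type neutrophils, highest in wild type 3, and from 11.2 to 86.0 CPM in wild-type macrophages. The part of free epithelial RNA in the Lcn2, Ltf and Pglyrp1 differences was not tested. Slpi, the inhibitor of neutrophil elastase, was 794, 1463 and 733 CPM in neutrophils and was not called (-1.36 ± 0.55, 0.0584) except without wild type 3 (-2.26).

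Macrophage and monocyte-like cells held nearly all Lyz2, at 14083, 6015 and 8044 CPM in wild type 1, 2 and 3 and 20673 CPM in GOF. Saa3 stood there at 3007, 1673 and 4245 CPM and at 2928 CPM in GOF, which lay inside the wild-type range. Slpi stood at 2865, 8435 and 510 CPM and at 2203 CPM in GOF, and 36.1% of the wild type 1 UMIs came from 1 cell. The 3 genes thus ranked the wild-type libraries in 3 different orders.

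Saa3 and Slpi were lower in cells with monocyte genes in 3 libraries. In cells positive for Ly6c2 or Ccr2, the monocyte gate, Saa3 was 45.7 against 3972 CPM in wild type 1, 72.4 against 1920 in wild type 2 and 728 against 3862 in GOF. Slpi was 124 against 4024, 403 against 9786 and 1476 against 2411 CPM in the same order. Lyz2 was 15155 against 14098, 6567 against 5811 and 19054 against 21060 CPM, higher in the positive cells of both wild-type libraries and lower in those of GOF. Wild type 3 had 7 positive cells, under the minimum of 20, and no test was made at this gate.

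Cells with the complement genes C1qa, C1qb and C1qc were compared with those lacking them in wild type 2 and 3, the wild-type libraries with at least 20 cells in both arms. Of 3161 genes 7.43% were called, and 2 of the 7 members tested. Saa3 rose by 1.17 ± 0.29 on the log2 scale (adjusted p = 0.00186), from 751 to 1874 and from 2511 to 4631 CPM, and Pglyrp1 fell by 1.66 (SE 0.32, 1.31e-05). In GOF Saa3 went from 404 to 3808 CPM. Neither call held with DESeq2, without the library block, or at 2000 UMIs per cell. Calls over all genes fell too, to 14 higher and 14 lower of 3161 with DESeq2 and 6 and 2 of 3161 without the block. At 2000 UMIs per cell they were 22 and 11 of 1512. GOF cells with Mmp12 and Gpnmb, 33.7% of the class, held 1345 CPM of Slpi against 2799 and 2147 CPM of Saa3 against 3038.

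The highest Slpi levels of a class were in mesothelial-like cells, the lining of the outer surface of the duct. They held 29089, 24156 and 6131 CPM in wild type 1, 2 and 3 and 13951 CPM in GOF, inside the wild-type range. In the wild type, 46.7% of 7459 genes differed between mesothelial-like and macrophage and monocyte-like cells, a comparison added after seeing the data, and 5 of the 9 members tested did. Slpi (2.80 ± 0.32, adjusted p = 5.41e-07) and Lcn2 (1.22 ± 0.40, 0.0184) were higher in mesothelial-like cells, and Saa3 (-2.85 ± 0.60, 0.000614), Lyz2 (-10.19 ± 0.42, 9.43e-12) and Pglyrp1 (-0.69 ± 0.24, 0.0256) lower. The Lcn2 call ended without wild type 2 (0.36) and the Pglyrp1 call without wild type 1 (-0.35). After thinning, Slpi was found in 80.7%, 91.2% and 70.2% of wild-type mesothelial-like cells, against 4.55% of the lymphoid-like cells of wild type 1.

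Slpi in B and plasma cells was held mostly by cells with Jchain in GOF, wild type 1 and wild type 3, and in wild type 1 mostly by a single cell. In wild type 1, 1 cell held 5774 of the 6031 Slpi UMIs of the class, which made 19.5% of its own 29604 UMIs, and it also held 467 UMIs of Jchain, the joining chain of polymeric immunoglobulin. The class stood at 16144 CPM with this cell and at 747 CPM without it. In GOF the highest cell held 886 of 1357 UMIs, with 98 of Jchain, and the class went from 3414 to 1243 CPM without it. Cells with at least 10 Jchain UMIs, 18 in GOF, 6 in wild type 1 and 8 in wild type 3, held 1349 of 1357, 5989 of 6031 and 116 of 118 Slpi UMIs. Their median was 19.5, 4 and 2 Slpi UMIs per cell.

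Saa3 and Slpi also marked some stromal cells, and these were divided among clusters that the libraries did not share. Cluster 8, with fibroblast genes such as Dpt, Cfd and Ccl11, held most wild-type fibroblast-like cells and had 5.83, 49.0 and 57.1 CPM of Saa3 in wild type 1, 2 and 3. GOF fibroblast-like cells were mostly in clusters 18 (287 cells, Saa3 247 CPM, Slpi 97.2 CPM) and 7 (248 cells, Saa3 10063 CPM, Slpi 3177 CPM). Cluster 7 was led by Col24a1, Tnc and Ncam1. An unnamed cluster, number 29, whose scores for fibroblast and mesothelial markers were too close to name it and whose leading genes included Enpp2, Cxcl13 and Pdgfra, held 207 cells of wild type 2 and 38 of wild type 3. Its Saa3 was 6781 and 5226 CPM and its Slpi 3452 and 2234 CPM. Wild-type cells with Saa3 near the GOF cluster 7 level therefore existed outside the fibroblast-like class.

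**Figure D4:**
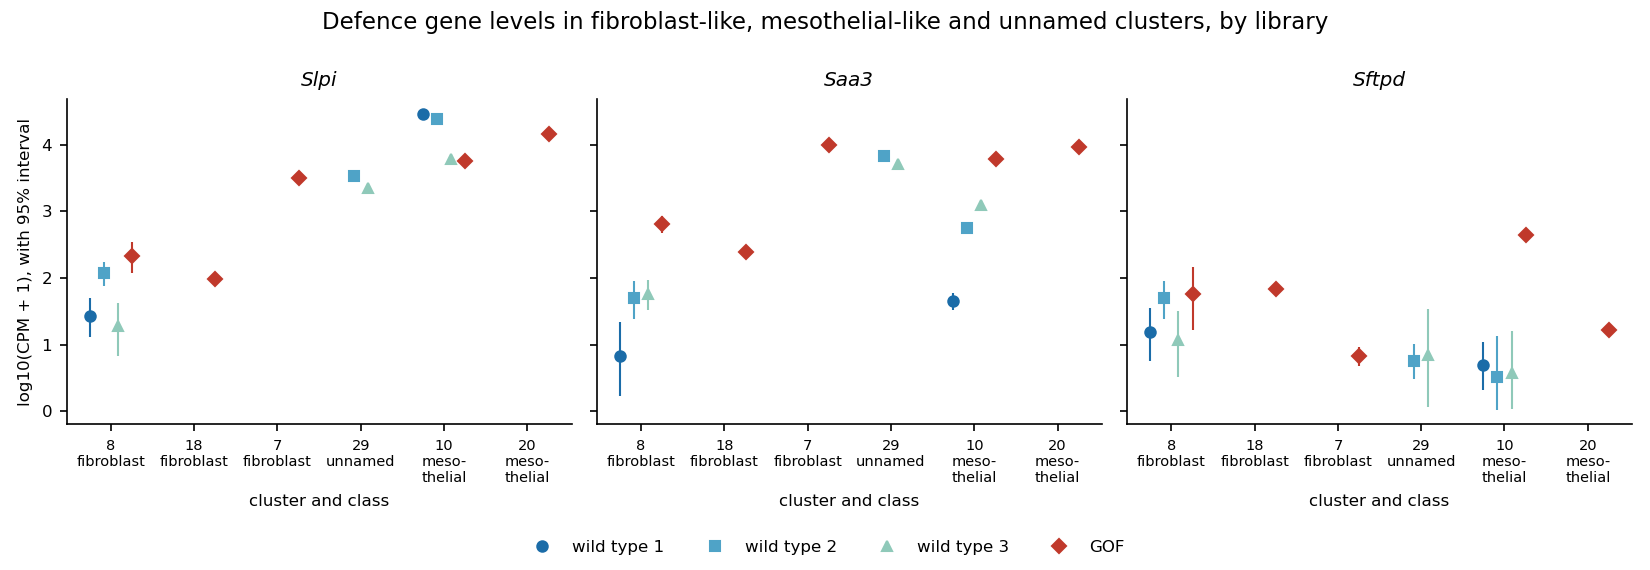
Levels of Slpi, Saa3 and Sftpd (log10 of CPM plus 1, with exact Poisson 95% intervals) in clusters named fibroblast-like or mesothelial-like and in the unnamed cluster 29, by library, for clusters with at least 20 cells of that library. Saa3 in cluster 7 of GOF and in cluster 29 of wild type 2 and 3 lies between 5226 and 10063 CPM, and Sftpd of mesothelial-like cells is high only in the GOF cells of cluster 10.

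Between GOF and wild-type epithelium, 15.5% of 15478 genes were called, 1792 higher and 605 lower in GOF (2878 and 302 with library totals, 1906 and 1151 with DESeq2), and 1 of the 10 members was. Pglyrp1 fell by 1.91 on the log2 scale (SE 0.36, adjusted p = 0.0241). Dmbt1 (-1.62 ± 0.41, 0.0508) and Pigr (-1.24 ± 0.37, 0.075) also lay below all 3 wild-type libraries but missed the threshold, and Lyz2 (2.29 ± 0.72, 0.0865) lay above them. Lcn2 (-0.54 ± 1.07, 0.752) and Ltf (-0.48 ± 1.03, 0.772) could not be told from the wild-type spread. The median over the members was -0.51 against 0.00 over all genes, and with library totals in place of TMM scaling all genes shift up by 0.35 and Pglyrp1 stands at -1.56. Without wild type 3 Dmbt1 (-1.42), Pigr (-1.39), Slpi (-1.15) and Lyz2 (2.61) were called as well, and Lyz2 also without wild type 1 (1.82) or wild type 2 (2.63). GOF and wild-type epithelial-like cells came largely from different clusters. Introns are one feature that counting software can treat differently. Of the genes below the wild-type range, Pglyrp1 has 17.29 kb of them, Dmbt1 82.52 kb and Pigr 21.54 kb. Of those inside it, Lcn2 has 0.997 kb, Ltf 20.05 kb, Slpi 33.85 kb and Wfdc2 4.958 kb. Of those above it, Sftpd has 10.52 kb, Saa3 1.097 kb and Lyz2 3.675 kb. These lengths are those of the gene models given above, which for Lcn2, Pglyrp1 and Slpi begin upstream of the RefSeq starts. The lengths therefore depend on the annotation. Whether introns were counted is not given in the sources used here, and their part was not tested.

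In macrophage and monocyte-like cells 10.4% of 8489 genes were called between GOF and wild type, and 1 of the 9 members tested. This was again Pglyrp1, at 44.4 CPM in GOF and 273, 237 and 219 CPM in the wild type (-2.49 ± 0.48, adjusted p = 0.00807). Dmbt1 showed the same side of the wild type there (178 against 474, 447 and 1267 CPM; -2.04 ± 0.65, 0.0736). Both are abundant in epithelium, and epithelial reference genes stood in macrophages at 2.21% of their epithelial level in GOF and 3.87%, 2.58% and 4.33% in the wild type; their part in the call was not tested. Saa3 (-0.04 ± 0.49) and Slpi (-0.88 ± 1.04) were not called. Without wild type 1 Dmbt1 (-2.24), Ltf (-1.54), Slpi (-1.06) and Lyz2 (1.56) were called too, and without wild type 2 Dmbt1 (-2.29), Ltf (-1.62) and Pigr (-1.32). GOF macrophages lay mostly in a cluster that held almost no wild-type cells.

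In fibroblast-like cells 19.3% of 6391 genes were called and 6 of the 10 members. Saa3 was 7411 CPM in GOF against 5.83, 49.0 and 56.9 CPM in the wild type (7.56 ± 0.61, adjusted p = 4.03e-05), and Slpi 2344 against 26.3, 117 and 17.8 CPM (5.41 ± 0.63, 0.000229). Lyz2 was also higher (2.79 ± 0.54, 0.00464). Pglyrp1 (-3.55 ± 0.88, 0.0156), Dmbt1 (-3.39 ± 0.69, 0.00551) and Pigr (-3.62 ± 0.96, 0.0212) were lower. Epithelial reference genes stood in this class at 5.61% of their epithelial level in GOF and at 9.5%, 17.2% and 4.28% in wild type 1, 2 and 3, and macrophage ones at 0.860% of their macrophage level in GOF and 0.0967%, 0.544% and 0.467% in the wild type; their part in the calls of Pglyrp1, Dmbt1, Pigr and Lyz2 was not tested. In wild type 2 a single cell held 113 of the 123 Pigr UMIs, 551 of the 820 Dmbt1 UMIs and 131 of the 194 Pglyrp1 UMIs of this class.

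These 6 calls held without each wild-type library in turn. They depended on the cell classes. With cluster 29 counted as fibroblast-like, a setting added after seeing the data, none of the 10 members was called. Calls over all genes fell as well, to 270 higher and 22 lower of 10757 tested. Saa3 then stood at 1.28 and Slpi at 0.54. With cluster 7 left out, also added later, Saa3 (2.76, adjusted p = 0.0152) and Lyz2 (3.25, 0.005) were called and Slpi (0.92, 0.43) was not. Mesothelial markers stood in fibroblast-like cells at 11.6% of their mesothelial level in GOF and at 0.487% to 0.590% in the wild type.

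Neutrophil-like cells gave 4.67% of 4857 genes as called between GOF and wild type, and 2 of the 10 members. Ltf was lower in GOF (-3.79 ± 1.12, adjusted p = 0.0216), but this rests on wild type 3, without which it was 0.38. Saa3 was higher (3.64 ± 0.93, 0.00432), at 415 CPM against 5.74, 59.7 and 94.5 CPM. Macrophage markers stood in neutrophil-like cells at 9.95% of their macrophage level in GOF and at 2.77%, 4.65% and 4.66% in the wild type, and their part in the Saa3 value was not tested. Without wild type 1 or without wild type 2 neither was called (Saa3 2.07 and 3.64), and DESeq2 called neither. Without wild type 3 Lcn2 (1.90) and Lyz2 (2.26) were called.

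In mesothelial-like cells, a comparison added after seeing the data, 11.5% of 9011 genes were called and 4 of the 10 members, all higher in GOF. Sftpd was 53.1 CPM against 3.88, 2.25 and 2.69 CPM (3.86 ± 0.45, adjusted p = 0.000331), Lyz2 104 against 6.80, 13.5 and 5.37 CPM (3.49 ± 0.40, 0.000282), Saa3 9155 against 43.7, 569 and 1254 CPM (3.72 ± 0.94, 0.0245) and Wfdc2 193 against 70.9, 80.9 and 29.5 CPM (1.46 ± 0.38, 0.0282). DESeq2 called Sftpd and Lyz2 but neither Saa3 (adjusted p = 0.437) nor Wfdc2 (0.138), and with cells gated on markers one by one Wfdc2 was -0.0951 and not called. Without cluster 20, a setting added later, 8 members were called, Sftpd, Lyz2 and Wfdc2 among them and Saa3 (3.22, adjusted p = 0.0531) not. Over all genes 750 were then called higher and 569 lower of 7997. Saa3 in mesothelial-like cells also differed widely among wild-type libraries. Sftpd and Wfdc2, epithelial genes elsewhere, stood at 436 and 1407 CPM in the 99 GOF cells of cluster 10. In the 378 of cluster 20 they stood at 15.9 and 74.9 CPM, and in GOF epithelial-like cells at 624 and 1684 CPM. Those 99 cells are the only GOF cells left without cluster 20. In that setting Lcn2, Pglyrp1 and Dmbt1 changed from lower to higher in GOF. Cluster 10 held 140 GOF cells before doublets were left out and 99 after. Of its wild-type cells 123 of 136, 68 of 69 and 69 of 70 were kept in wild type 1, 2 and 3. Any part of doublets in these levels was not tested. Epithelial reference genes, summed, stood in the class at 37.1% of their epithelial level in GOF and 22.1% to 31.2% in the wild type. They include keratin genes, which mesothelium is also known to express. The lowest single gene among them stood at 6.43% in GOF and at 1.35%, 0% and 0% in wild type 1, 2 and 3. The part of epithelial RNA in these values was not tested.

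**Figure D5:**
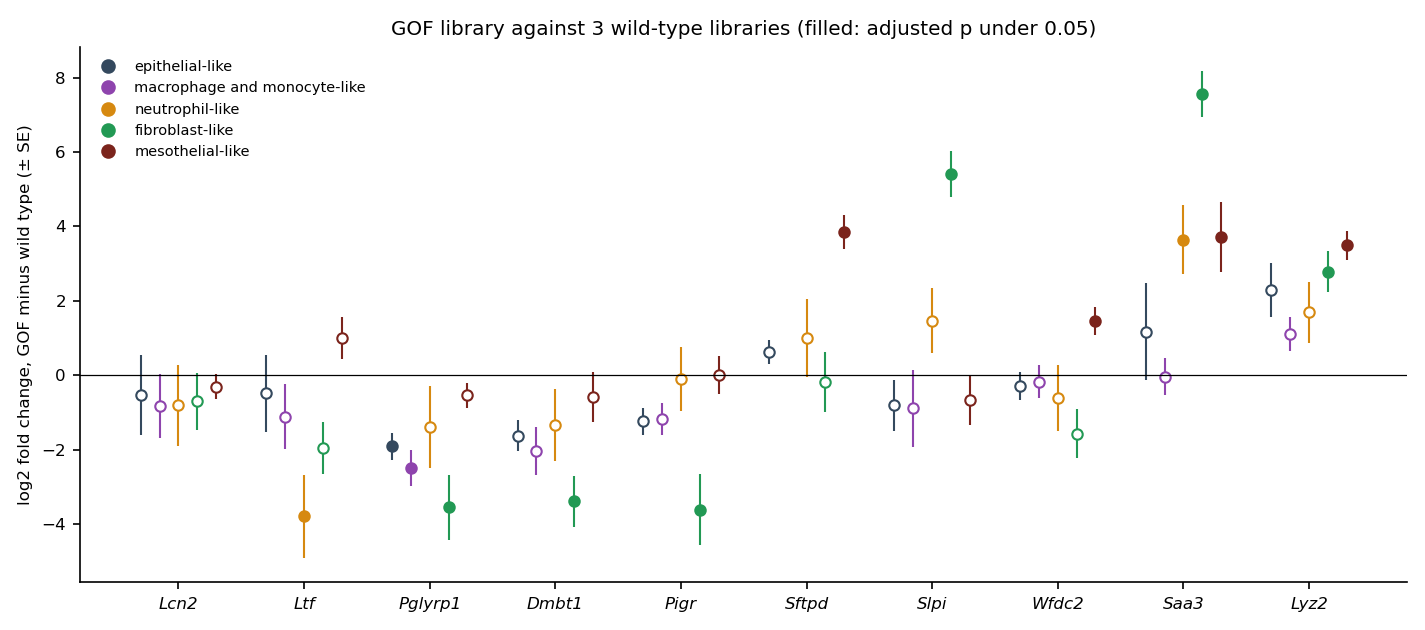
Log2 fold change of GOF against the 3 wild-type libraries (vertical axis, bars ± SE) for each gene in 5 cell classes; filled points had an adjusted p under 0.05. Pglyrp1 is filled and below 0 in epithelial-like, macrophage and monocyte-like and fibroblast-like cells, and the highest points are Saa3 and Slpi in fibroblast-like cells. Their calls ended when cluster 29 was counted with these cells, a setting in which fewer genes were called in all.

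Whether the GOF difference itself varied between classes was tested as an interaction. Between epithelial-like and fibroblast-like cells 5.05% of 15252 genes were called and 5 of the 10 members: Slpi (-6.35 ± 0.51, adjusted p = 8.23e-32) and Saa3 (-6.21 ± 0.50, 2.81e-31), whose GOF difference was lower in epithelium, and Pigr (1.96 ± 0.44, 0.000467), Dmbt1 (1.55 ± 0.35, 0.000522) and Pglyrp1 (1.28 ± 0.40, 0.0325), for which it was higher. None was called with cluster 29 counted as fibroblast-like, where over all genes 51 were higher and 18 lower of 15399 tested. Without wild type 2, whose single cell was named above, Pigr (1.11), Dmbt1 (0.96) and Pglyrp1 (0.54) were not called, nor was Pglyrp1 without wild type 1 (1.36); Ltf was called without wild type 1 (1.91) or wild type 3 (1.5), and Wfdc2 without wild type 3 (1.55). Between epithelial-like and macrophage and monocyte-like cells 3.11% of 15076 genes were called and 0 of the 10 members, by edgeR or DESeq2; Saa3 came nearest (1.90 ± 0.65, 0.0989) and was called without wild type 2 (3.36) or wild type 3 (1.93). Lyz2 was called without wild type 3 (1.61) and Ltf without wild type 1 (1.91). Members with an unadjusted p under 0.05 numbered 2 by edgeR.

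Receptors and signal transducers known to induce such genes were counted from a list of 35. Between GOF and wild-type epithelium all 35 were tested and 5 were higher and 0 lower, a share near the 15.5% called over all genes, with a median of 0.10 against 0.00 over all genes. The 3 with the largest differences were Socs3, a feedback inhibitor of cytokine signalling (2.95), the interleukin 1 receptor gene Il1r1 (2.45) and the lipopolysaccharide receptor gene Tlr4 (2.12). At the inflamed gate of the wild type 8 of 32 were higher and 0 lower, beside 5.21% of all genes called, with a median of 0.26 against -0.01, led by the oncostatin M receptor gene Osmr (3.17), Tnfrsf1b (1.84) and Zc3h12a (1.77). At the resting gate 1 of 33 was higher and 12 lower, beside 14.5% of all genes, with a median of -0.24 against 0.01, led by Osmr (-1.72), Tlr2 (-1.72) and Zc3h12a (-1.49). At the mucous gate 1 of 31 was higher and 5 lower, beside 2.83%, with a median of -0.46 against -0.01; the higher one was Spdef (3.12), a transcription factor of mucous cells, and Zc3h12a (-2.11) and Ifngr2 (-1.35) led the lower ones.

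Other secreted defence genes, a list of 46, were also mostly lower where they were called at the resting and mucous gates. At the resting gate 1 of 24 tested was higher and 16 lower, beside 14.5% of all genes called, with a median of -0.92 against 0.01. The lectin genes Itln1 (-4.91) and Zg16 (-3.59) and Lypd8 (-3.41) led. At the mucous gate 0 of 23 were higher and 5 lower, beside 2.83%, with a median of -0.49 against -0.01, led by Reg3g (-3.37), Reg3b (-2.97) and Lypd8 (-2.78). At the inflamed gate 3 of 23 were higher and 3 lower, beside 5.21%, with a median of 0.18, led by Zg16 (-4.61), Lypd8 (-4.46) and Itln1 (-4.11). Between GOF and wild-type epithelium 3 of 31 were higher and 2 lower, again a share near the 15.5% of all genes, with a median of -0.55, led by Wfdc18 (-3.30), Reg3b (2.95) and Ang (2.56).

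Receptors, cargo and targets of the members formed a list of 13. In GOF epithelium 1 of 10 tested was called, beside 15.5% of all genes. It was the endocytic lactoferrin receptor gene Lrp1, which was lower (-1.04), and the list median was -0.65. Between wild-type epithelium and macrophages 0 of 11 were higher and 7 lower, beside 44.0% of all genes called in either direction. The median was -1.49 against 0.19, and Cd209b (-9.16), Fpr2 (-8.27) and Trem1 (-6.90) led. Neutrophil granule genes other than the members gave 1 call of 18 in GOF epithelium, Anxa1 (1.00), beside 15.5% of all genes, with a list median of -3.18. The summed level of the fixed neutrophil markers in epithelial-like cells was 22.4 CPM in GOF and 75.0, 89.8 and 408 CPM in wild type 1, 2 and 3.

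The genes whose levels across classes were most like each member's were sought among 15532 genes, over 47 library-by-class values in 13 classes that share libraries and free RNA. Dmbt1 was most like Lgals4 (Pearson's r = 0.94 on log2 of CPM plus 1), Tm4sf4 (0.93) and Gpx2 (0.91). Pigr was most like Gpx2 (0.89), Tff2 (0.87) and Sptssb (0.85), and Sftpd like Myh14 (0.90), Sdcbp2 (0.89) and Cblc (0.87). Wfdc2 was most like Atp1b1 (0.89), Tspan8 (0.88) and Cldn2 (0.88), and Pglyrp1 like Agpat2 (0.83), Dmbt1 (0.81) and Tm4sf4 (0.80).

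The nearest gene of Lcn2, of Saa3 and of Slpi was less like it than the nearest gene of each other member. Lcn2 was most like C77080 (0.73), Ltf (0.72) and Pglyrp1 (0.70), so 2 of its 3 nearest genes were members. Ltf was most like Spint1 (0.81), Ugt2b35 (0.78) and Clic6 (0.77). Lyz2 was most like Mpeg1 (0.85), Cybb (0.85) and Ms4a6d (0.84), and Saa3 like Trem2 (0.77), Ccl2 (0.74) and Garnl3 (0.72). Slpi had no close match: its nearest were Hist1h4i (0.68), Creg1 (0.67) and Syk (0.65).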

How the data were processed

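Gene by cell tables of 3′ UMI counts, deposited by the authors unnormalized, were used for 1 GOF and 3 wild-type libraries. Per the file headers they were written by Cell Ranger 7.0.0 (GOF) and 3.0.2 (wild type), while the submitters' processing notes name Cell Ranger 7.1 and mm10; intron counting is not given in the sources used here. In total the libraries held 113596685 UMIs (GOF) and 43737469, 17358894 and 9558637 UMIs (wild type 1, 2 and 3). The members and all gene lists were chosen with earlier results of these data known.

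Cells had at least 500 genes, at most 25% mitochondrial UMIs and under 0.1% haemoglobin UMIs, a limit set after seeing the data. The highest Scrublet scores, 0.8% of cells per 1000 barcodes, were left out as doublets. Cells were clustered with scanpy 1.11.5 (2000 variable genes without the members, 30 components, 15 neighbours, Leiden resolution 1.5) and clusters were named from listed markers, with naming limits set after seeing the data. Counts were summed per library and class or gate arm (at least 20 cells; positive cells had 2 or more UMIs of the gate genes, negative cells 0). Sums were tested with edgeR 4.0.16 (TMM, quasi-likelihood, Benjamini-Hochberg over all tested genes, adjusted p under 0.05), with the library as a block among wild-type sums, since both arms come from the same library. A low-count filter (filterByExpr) was applied. DESeq2 1.42.0, library totals, no filter, left-out libraries, other gates, marker gates and kept doublets were alternatives. Only the GOF test in epithelial-like cells was checked on simulated counts, with the same spread set for every gene. The check does not cover the other tests or genes with a wider spread. Each member is reported; of each companion list, up to 3 called genes with the largest log2 difference are named, and for each member the 3 genes most correlated with it.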

Additional observations from a re-analysis of the deposited data

Results flagged for a closer look

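The difference between GOF and wild type was tested to vary between epithelial-like and fibroblast-like cells for 5 genes. In epithelial-like minus fibroblast-like cells it was -6.35 on the log2 scale for Slpi, -6.21 for Saa3, 1.28 for Pglyrp1, 1.55 for Dmbt1 and 1.96 for Pigr. None of these was called when the unnamed cluster 29 was counted as fibroblast-like. Over all 15399 genes tested in that setting, 51 were called higher and 18 lower.

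Signal of 2 genes appeared in wild-type cells that were in no class. In cluster 29 Saa3 stood at 6781 CPM in wild type 2 and 5226 CPM in wild type 3, and Slpi at 2234 CPM in wild type 3. Each of these was above every named class of the same library other than, for Slpi, the mesothelial-like one.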

How the results depend on the processing

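Of 1350 values of the members under alternative settings, 1085 kept their direction and side of the threshold, 95 were no longer called and 85 were newly called. Numbers of members called, out of 10, that moved by more than 1.5 times come first. With DESeq2 it was 4 for GOF epithelium (1 in the reported fit), 2 for macrophages (1), 0 for neutrophils (2), 2 for mesothelium (4), 2 for the interaction with fibroblasts (5), 3 for mesothelium against macrophages (5), 2 at the inflamed gate (4), 3 at the resting gate (5) and 0 at the complement gate (2). With library totals it was 3 for GOF epithelium, 1 for neutrophils and 2 for the interaction with macrophages (0). Without a filter on low counts it was 2 for GOF epithelium, 2 for macrophages, 1 for neutrophils, 7 at the inflamed gate and 5 at the complement gate. With single-cell marker gates it was 3, 1 and 1 for GOF epithelium, fibroblasts (6) and neutrophils, and 1 for the interaction with fibroblasts. In a further setting only genes with 5 kb or less of intron in the gene models used here were kept, where fewer members can be tested. The number was then 0, 0, 2, 0 and 2 for GOF epithelium, macrophages, fibroblasts, neutrophils and mesothelium, and 2 for the interaction with fibroblasts. At 15% mitochondrial UMIs it was 2 for GOF epithelium and 1 for the interaction with macrophages, and with doublets kept 1 for neutrophils. Settings added after seeing the data gave 2 for fibroblasts and 1 for the interaction without cluster 7, 0 for both with cluster 29 counted, and 8 for mesothelium without cluster 20. Over all genes, higher and lower calls there were 483 and 109 of 6342 and 112 and 52 of 14496 without cluster 7. With cluster 29 counted they were 270 and 22 of 10757 and 51 and 18 of 15399. Without cluster 20 they were 750 and 569 of 7997. Thinned to 2000 UMIs the number of members called was 7 at the inflamed and 0 at the complement gate. For every comparison, whether or not the number moved that far, leaving out 1 wild-type library gave 2 to 5 for GOF epithelium, 1 to 5 for macrophages, 6 to 9 for fibroblasts, 0 to 3 for neutrophils, 4 to 5 for mesothelium, 2 to 7 and 1 to 2 for the interactions with fibroblasts and macrophages, 7 to 8 and 10 to 10 for wild-type epithelium against fibroblasts and macrophages, 5 to 7 for neutrophils and 4 to 6 for mesothelium against macrophages, and 0 to 7, 3 to 7 and 2 to 5 at the inflamed, resting and mucous gates. The cause was not tested.

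Without the library (replicate) block 0 members were called at the inflamed, 0 at the resting, 1 at the mucous (3) and 0 at the complement gate. Over all genes 1, 1, 82 and 8 were called in that setting, in the same order of gates. No paired analysis was possible for GOF against wild type because there is 1 GOF library. The cycling gate could not be tested, nor the complement gate with a library left out.

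The sign changed for 11 values called in one of the fits, given here, and for 74 called in neither. With 1 wild-type library left out, neutrophil Lcn2 ranged from -1.56 to 1.90 (-0.81) and Ltf from -4.62 to 0.38 (-3.79), and Pglyrp1 at the mucous gate from -0.50 to 0.43 (0.05), the sign changing without wild type 3. With marker gates, Wfdc2 was -0.10 (1.46) in mesothelium, Slpi -3.09 (0.38) in epithelium against fibroblasts and Pglyrp1 0.0482 (-0.69) in mesothelium against macrophages. Without cluster 20, mesothelial Lcn2 was 1.53 (-0.31), Pglyrp1 2.49 (-0.54) and Dmbt1 2.43 (-0.58). Without cluster 7 the interaction was -0.0786 (1.28) for Pglyrp1, and with cluster 29 counted Slpi was -4.23 (0.38) in epithelium against fibroblasts. With a minimum of 200 genes and single-cell marker gates together, wild-type neutrophil Saa3 was 234 CPM (53.3) and Lyz2 727 CPM (495). At 1000 UMIs the mean wild-type share of epithelial-like cells was 86.4% (95.8%) for Pglyrp1, 98.7% (99.5%) for Dmbt1, 50.6% (65.7%) for Pigr, 24.9% (38.8%) for Sftpd and 73.5% (90.2%) for Wfdc2, as fewer UMIs are drawn. Over all genes the number called spanned 134 to 3951 (2397) for GOF epithelium, 54 to 1538 (881) for macrophages, 155 to 2033 (1231) for fibroblasts, 29 to 626 (227) for neutrophils, 140 to 2028 (1036) for mesothelium, 69 to 819 (770) and 46 to 526 (469) for the interactions with fibroblasts and macrophages, 176 to 2071 (1423) for neutrophils and 2317 to 4431 (3486) for mesothelium against macrophages, and 1 to 1496 (579), 1 to 2447 (1682), 82 to 885 (305) and 8 to 234 (235) at the inflamed, resting, mucous and complement gates. With library totals the higher and lower calls were 560 and 259 (404 and 366) and 384 and 142 (259 and 210) for the interactions with fibroblasts and macrophages, 273 and 116 (339 and 240) at the inflamed gate and 1565 and 599 (695 and 987) at the resting gate, where the all-gene median was 0.14 (0.01) and the 5 members called stayed lower.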

Other observations

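Cycling epithelial-like cells, those with at least 2 UMIs of Mki67 or Top2a, were compared without a test in GOF and wild type 1, where they numbered 233 and 61. Pigr stood at 460 CPM in them against 693 CPM in cells without these genes in GOF, and at 865 against 1569 CPM in wild type 1. Dmbt1 stood at 4731 against 6847 CPM in GOF and at 13293 against 14212 CPM in wild type 1. Lcn2 stood at 2391 against 1987 CPM in GOF and at 4135 against 4825 CPM in wild type 1, so the libraries did not agree on its side.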
